A study of Mus musculus with 9 samples.

Results

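Rab proteins are small GTPases that sit on the membranes of the cell and direct traffic between them. Each Rab cycles between a GDP-bound form, held in the cytosol by escort proteins, and a GTP-bound form on a membrane, where it recruits effectors such as motors and tethers, and different members mark different compartments. The extra-embryonic endoderm is known for heavy membrane traffic, since its visceral cells take up maternal proteins through an apical endocytic system and its parietal cells secrete a thick basement membrane.

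The genes described here are all those whose annotated symbol is Rab followed by a number and at most 1 further letter. This rule uses the symbol alone, but the Rab genes were chosen as a subject with earlier results of these data known. It gave 112 probes of 59 genes among the 45281 probes of 19057 named genes on the array. RNA from 3 mouse cell lines was hybridized to Illumina mouse bead arrays, with 3 arrays for each line and 9 in all. END2 cells derive from the P19 embryonal carcinoma line and were grown in a mixture of DMEM and F12 medium. PYS2 cells derive from a tumor of 129 strain mice and XEN cells from blastocysts of the ICR strain, and both were grown in high glucose DMEM, so that medium and line cannot be told apart in a comparison with END2 cells. All 3 lines were grown with serum, none was treated, and each group is a single line. The sources used here do not say that the 3 RNA samples of a line came from separate cultures, and the p-values below then rest only on how far these samples differ, which could be technical.

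The median signal of an array lay between 21.3 and 43.5 units of fluorescence intensity, and each Rab probe was read from 19 to 74 beads. END2 replicate 3 lay farther from the other END2 arrays (distances of 72.1 and 78.5 over all tested probes) than those lay from each other (35.0). The markers of extra-embryonic endoderm were all 6 present in PYS2 and XEN cells, while Sox7 and Sox17 were detected on no END2 array and 4 of 6 were present there. Among those 4 was Gata4, read by 1 probe. The authors found Gata4 absent from END2 cells by qRT-PCR and immunocytochemistry, and propose that this probe may bind other transcripts or splice variants. The summed level of those 6 markers, on a linear scale, ranged from 7030 to 9529 in END2 cells. It ranged from 25143 to 29217 in PYS2 and from 24376 to 28489 in XEN cells. Gata6 alone was higher in END2 than in PYS2 cells (mean log2 level 12.45 against 11.72, and 12.87 in XEN cells). The other 5 were lower in END2 cells than in both lines. The summed level of the mesenchyme markers moved the other way, with 5 of 6 present in END2 cells (summed level 2849 to 2974) and 1 of 6, Twist1, in PYS2 (215 to 250) and XEN cells (196 to 260). Col1a1, Col1a2, Col3a1 and Thy1 were detected on no PYS2 or XEN array and Postn on no array at all. PYS2 cells stood apart in the summed level of the 6 markers of pluripotent cells, at 20454 to 25499. The same sum was 229 to 285 for END2 arrays and 243 to 313 for XEN arrays. Most of the PYS2 sum was Dppa5a, with a mean log2 level of 14.48 in PYS2, 4.84 in END2 and 5.93 in XEN cells. By presence PYS2 cells did not stand apart, since they had 1 of the 6, as END2 cells did, while XEN cells had 2. Dppa5a was present in both PYS2 and XEN cells. Nanog was present in END2 cells only and Utf1 in XEN cells only (mean log2 level 6.15), while Pou5f1 and Zfp42 were present in no line. Of the 6 trophoblast markers Cdx2 alone was present, in PYS2 cells (mean log2 level 6.04). The part of these marker differences in any Rab difference between the lines was not tested.

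A probe was called detected on an array at a detection p-value under 0.01, and a gene present in a line when 2 or more of its 3 arrays detected a probe of it. By that rule END2 cells had 38 of the 59 Rab genes (64.4%), PYS2 cells 35 (59.3%) and XEN cells 36 (61%). Of all 19057 named genes, 44.2%, 41.5% and 41.5% were present. The 3 lines shared 33 Rab genes, among them the Rabs that every cell uses for the main steps of secretion and endocytosis (Rab1a, Rab1b, Rab2a, Rab5a, Rab5b, Rab5c, Rab6a, Rab7, Rab8a, Rab11a and Rab11b). A further 7 genes were present in 1 or 2 lines, namely Rab38, Rab3d and Rab7b in END2 cells, Rab17 in PYS2 cells, Rab15 in PYS2 and XEN cells, and Rab32 and Rab34 in END2 and XEN cells. The remaining 19 were present in no line and were not tested, and the brightest probe of 15 of them was detected on no array. Those 19 were Rab19, Rab20, Rab25, Rab26, Rab27b, Rab29, Rab2b, Rab30, Rab33a, Rab36, Rab37, Rab39, Rab39b, Rab3b, Rab3c, Rab40b, Rab42, Rab44 and Rab9b. Several of them are known from other tissues, such as Rab3b, Rab3c and Rab27b from regulated secretion and Rab25 from polarized epithelia.

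Levels below are log2 values of the background-corrected, normalized signal of the brightest tested probe of a gene, and a difference of 1 on this scale is a doubling. Levels of different probes cannot be set against each other, because each probe binds with its own strength. A gene is called where the adjusted p-value of the limma model over all 16299 tested probes was under 0.05. Where fewer than 2 arrays of a line detected a gene, the fold is given as a bound, from the lowest signal that counted as detected there.

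Of the 40 genes tested, the one furthest below the other lines in END2 cells was Rab15, a Rab of early and recycling endosomes that has been studied in transferrin receptor recycling. Its level was 4.83, 5.09 and 5.38 on the END2 arrays, where it was never detected. It was 10.63, 10.93 and 11.22 on the PYS2 arrays and 10.73, 10.58 and 10.44 on the XEN arrays. The END2 arrays thus lay far below all 6 others, and the PYS2 and XEN arrays overlapped. Rab15 was at least 48.3-fold higher in PYS2 relative to END2 (log2 difference -5.82, SE 0.20, adjusted p = 6.85e-10) and in XEN cells at least 38-fold above END2 (-5.48, SE 0.20, adjusted p = 1.29e-09).

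Rab32 and Rab38 are close paralogs that serve lysosome-related organelles, such as the melanosome, and share exchange factors. The level of Rab32 was 10.41, 10.18 and 11.12 in END2 cells. It was 5.25, 4.92 and 4.77 in PYS2 cells, where no array detected it, and 6.63, 6.70 and 6.98 in XEN cells. The level of Rab38 was 9.56, 9.60 and 9.87 in END2 cells. It was 4.42, 4.32 and 4.40 in PYS2 cells and 4.32, 4.34 and 4.48 in XEN cells and no array of the latter 2 lines detected it. Both genes were thus high on all END2 arrays and the lines did not overlap, except PYS2 and XEN cells for Rab38, whereas only Rab32 was detected in XEN cells. Rab32 was at least 32-fold higher in END2 relative to PYS2 (log2 difference 5.59, SE 0.24, adjusted p = 3.75e-09) and 13.9-fold higher relative to XEN (3.80, SE 0.24, adjusted p = 1.27e-07). In PYS2 cells Rab32 was at least 2.3-fold below XEN cells (-1.79, SE 0.24, adjusted p = 0.000149). Rab38 was at least 17.2-fold higher in END2 relative to PYS2 (5.29, SE 0.15, adjusted p = 2.35e-10) and at least 17.8-fold higher relative to XEN (5.29, SE 0.15, adjusted p = 2.32e-10). Its other tested probe gave the same calls (3.72 and 3.59).

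Rab34, a Golgi Rab known for its part in lysosome positioning and in building the primary cilium, had a similar order of lines. Its level was 10.77, 10.70 and 10.49 in END2 cells. It was 4.75, 4.73 and 4.54 in PYS2 cells, where it was not detected, and 7.44, 7.21 and 6.96 in XEN cells. The 3 lines did not overlap, with XEN cells between the other two. Rab34 was at least 33.8-fold higher in END2 relative to PYS2 (log2 difference 5.98, SE 0.17, adjusted p = 2.33e-10) and 10.9-fold higher relative to XEN (3.45, SE 0.17, adjusted p = 1.67e-08). It was at least 3.1-fold lower in PYS2 relative to XEN (-2.53, SE 0.17, adjusted p = 6.34e-07). All 3 of its probes were tested and gave the same call in each comparison. The dimmest of them was detected on no PYS2 or XEN array, and its difference between those lines was only -0.58 (adjusted p = 0.0438).

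The other 3 line-restricted members had lower levels. Rab3d, a Rab of secretory granules, stood at 7.54, 7.66 and 6.89 in END2 cells. It stood at 5.53, 5.44 and 5.83 in PYS2 cells, where 1 array detected it, and 4.42, 4.38 and 4.47 in XEN cells, where none did. END2 cells exceeded PYS2 cells at least 3.26-fold (log2 difference 1.76, SE 0.21, adjusted p = 2.49e-05) and XEN cells at least 3.58-fold (2.94, SE 0.21, adjusted p = 3.4e-07). No lines overlapped. Rab17, a Rab of epithelial cells that acts in apical recycling and transcytosis, was detected in PYS2 cells (5.97, 6.17 and 6.002) and on no array of END2 (4.56, 4.60 and 4.53) or XEN cells (4.55, 4.79 and 4.49). PYS2 arrays averaged at least 1.64-fold above END2 (log2 difference -1.48, SE 0.15, adjusted p = 7.7e-06) and at least 1.44-fold above XEN (1.44, SE 0.15, adjusted p = 2.4e-05), and its other probe gave the same calls. Rab7b, which acts between late endosomes and the trans-Golgi network, was detected on 2 of 3 END2 arrays (5.22, 5.33 and 5.43) and on none of the PYS2 (4.41, 4.34 and 4.45) or XEN arrays (4.68, 4.38 and 4.35), too near the limit for a fold. It was called higher in END2 cells (0.92 above PYS2, adjusted p = 0.000421, and 0.86 above XEN, adjusted p = 0.000747). Without END2 replicate 1 or replicate 2 it was not present in any line and was not tested. Rab38, Rab3d and Rab7b entered the tests only through END2 arrays, and Rab17 only through PYS2 arrays, the lines where they were high. Their calls are therefore no support independent of their presence there. In the authors' normalized values the calls of Rab15, Rab32, Rab38, Rab34, Rab3d and Rab17 were kept at smaller sizes, for example -3.61 in place of -5.82 for Rab15, 3.31 for Rab32, 2.71 for Rab38, 3.46 for Rab34, 0.71 for Rab3d and -0.41 for Rab17 in END2 against PYS2 cells.

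**Figure D1:**
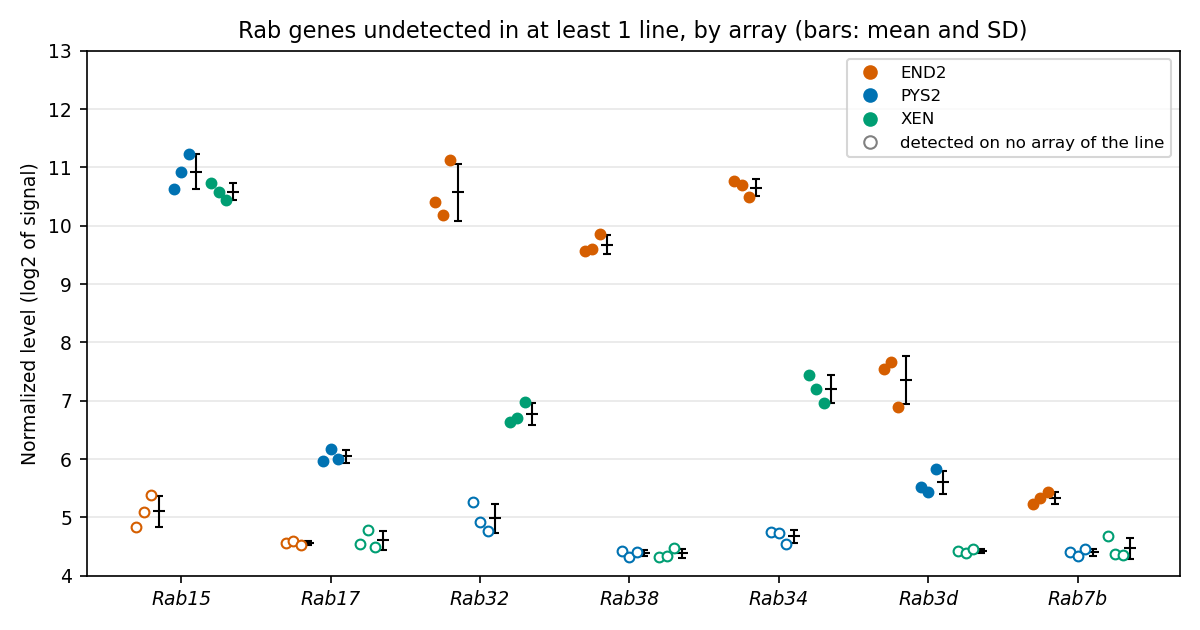
Normalized level (log2 of signal) of the 7 Rab genes that were present in at least 1 line and detected on no array of another, for each array, with END2 in orange, PYS2 in blue and XEN in green, open circles where no array of the line detected the probe, and bars for the mean and SD of 3 arrays. Rab15 was low in END2 cells alone, Rab38 was high in END2 cells alone, and Rab32 and Rab34 had XEN cells between the other lines.

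The promoters of 4 of these genes are shown, chosen among members with an entry in the RefSeq table of GRCm38.p6. Rab15, Rab32 and Rab34 had the widest differences between lines, and Rab17 was present in 1 line and detected on no array of the others. Rab3d, also present in 1 line but detected on 1 array of another, is not shown. Of the 59 Rab genes 48 had an entry, with 60 promoters in all, and Rab18, Rab26, Rab27b, Rab2a, Rab30, Rab36, Rab37, Rab38, Rab44, Rab4a and Rab7b are named only. Each sequence runs 5′ to 3′ from 250 bases before to 50 bases after the most upstream start listed, with every CG dinucleotide in capitals.
Rab15, chr12:76822475-76822774, minus strand: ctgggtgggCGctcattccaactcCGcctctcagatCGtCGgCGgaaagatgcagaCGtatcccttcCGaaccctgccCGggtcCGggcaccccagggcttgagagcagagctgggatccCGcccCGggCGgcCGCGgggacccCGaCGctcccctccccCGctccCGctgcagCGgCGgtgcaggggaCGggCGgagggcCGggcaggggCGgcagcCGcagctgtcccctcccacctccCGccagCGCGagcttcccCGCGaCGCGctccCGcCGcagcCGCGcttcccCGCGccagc
Rab17, chr1:90967618-90967917, minus strand: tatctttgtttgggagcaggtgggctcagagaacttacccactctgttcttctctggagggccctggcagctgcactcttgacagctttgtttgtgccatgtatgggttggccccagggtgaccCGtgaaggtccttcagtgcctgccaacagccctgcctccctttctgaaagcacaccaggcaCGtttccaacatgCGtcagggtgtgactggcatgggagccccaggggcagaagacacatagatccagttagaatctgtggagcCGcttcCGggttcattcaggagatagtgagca
Rab32, chr10:10558158-10558457, minus strand: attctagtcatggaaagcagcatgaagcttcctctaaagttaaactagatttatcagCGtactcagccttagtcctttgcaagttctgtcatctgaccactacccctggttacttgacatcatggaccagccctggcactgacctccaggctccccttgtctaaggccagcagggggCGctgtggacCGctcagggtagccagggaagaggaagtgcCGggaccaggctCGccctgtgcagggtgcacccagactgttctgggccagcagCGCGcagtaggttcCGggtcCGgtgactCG
Rab34, chr11:78188177-78188476, plus strand: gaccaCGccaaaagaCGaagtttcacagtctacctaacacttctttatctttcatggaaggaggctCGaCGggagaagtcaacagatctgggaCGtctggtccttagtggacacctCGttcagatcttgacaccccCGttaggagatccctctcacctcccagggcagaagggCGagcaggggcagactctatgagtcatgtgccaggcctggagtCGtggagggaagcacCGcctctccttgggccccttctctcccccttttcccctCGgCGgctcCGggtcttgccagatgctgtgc
The Rab15 promoter held 38 CG dinucleotides at a GC content of 76.3%, a ratio of 0.882 to the number that its C and G counts would give at random, and the Rab17 promoter held 5 at 55.7% (ratio 0.216). Those of Rab32 (10 at 57.3%, ratio 0.406) and Rab34 (13 at 58%, ratio 0.518) lay between. The Rab3d promoter had a GC content of 71% and a ratio of 0.774. Across members with an entry, the median GC content was 63.3% and the median CG ratio 0.777 for the 30 present in all 3 lines, 58% and 0.518 for the 5 present in 1 or 2 lines, and 58.3% and 0.591 for the 13 present in none, beside 52.7% and 0.389 for the 27025 genes of the table. The motif AGATAA, bound by GATA factors, was searched on both strands and was found in 3.33% of the 60 Rab promoters (those of Rab34 and Rab43) and in 11.2% of all 32851 promoters. The E-box CACGTG, the same on both strands, was in 10% of the Rab promoters and 7.15% of all. Neither was in the Rab15, Rab17 or Rab32 sequence above, and these matches describe letters only.

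In END2 against PYS2 cells, 40 Rab genes were tested and 28 were called, 11 higher and 17 lower in END2 cells. Of all 9354 named genes tested 55.3% were called, 26.4% higher and 28.8% lower in END2 cells. The median difference over the 40 Rab genes was -0.16 and the median size 0.67, beside -0.03 and 0.61 over all tested genes. A difference of at least 1 in size was called for 14 Rab genes, against 32.2% of all genes. In END2 against XEN cells 20 of 40 were called, 9 higher and 11 lower in END2 cells, beside 54.2% of all genes, 27.5% higher and 26.7% lower. Of these, 8 Rab genes differed by at least 1 (31.6% of all genes did), with a median size of 0.48 beside 0.60. In PYS2 against XEN cells 13 were called, 6 higher and 7 lower in PYS2 cells, beside 39.6% of all genes, 21.2% higher and 18.4% lower, and 6 Rab genes differed by at least 1 (19.5% of all genes). The shares of Rab genes called were thus 70%, 50% and 32.5%, and these were not tested against the shares of all genes. In the authors' normalized values 28, 21 and 16 of the 40 were called, beside 51.3%, 50% and 36.1% of all tested probes. Whether Rab genes were called more or less often than others in the 2 XEN comparisons thus depended on the processing.

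The 3 comparisons share arrays, so the calls of a gene are set side by side. Of the 40 genes, 7 were lower in END2 cells than in both other lines with no call between those (Rab11a, Rab15, Rab1a, Rab21, Rab31, Rab8a and Rab9), and 5 were higher in the same way (Rab14, Rab28, Rab38, Rab7b and Rab8b). Rab10, Rab6a and Rab6b were lower in PYS2 cells than in both others, and Rab17, Rab43 and Rab5c were higher there. Called in no comparison were 9 genes (Rab12, Rab13, Rab1b, Rab23, Rab2a, Rab33b, Rab35, Rab5a and Rab7), whose differences lay between -0.27 and 0.62. These patterns were not counted over all tested genes, so they are not shown to be particular to Rab genes. Of all genes 55.3%, 54.2% and 39.6% were called in the 3 comparisons. Over the levels of the 40 genes, the Euclidean distance between arrays of 1 line was 1.36 to 3.31, between PYS2 and XEN arrays 4.76 to 5.49, between END2 and XEN arrays 10.4 to 11.1 and between END2 and PYS2 arrays 12.4 to 13.1. Over all tested probes the order was the same, at 35.0 to 78.5, 123 to 137, 174 to 184 and 189 to 195. This distance squares differences, so Rab15, Rab32, Rab34 and Rab38 weighed most between END2 and PYS2 arrays. The SD of a gene's level over the 3 arrays of a line had a median of 0.18 and reached 0.80, for Rab12 in END2 cells.

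**Figure D2:**
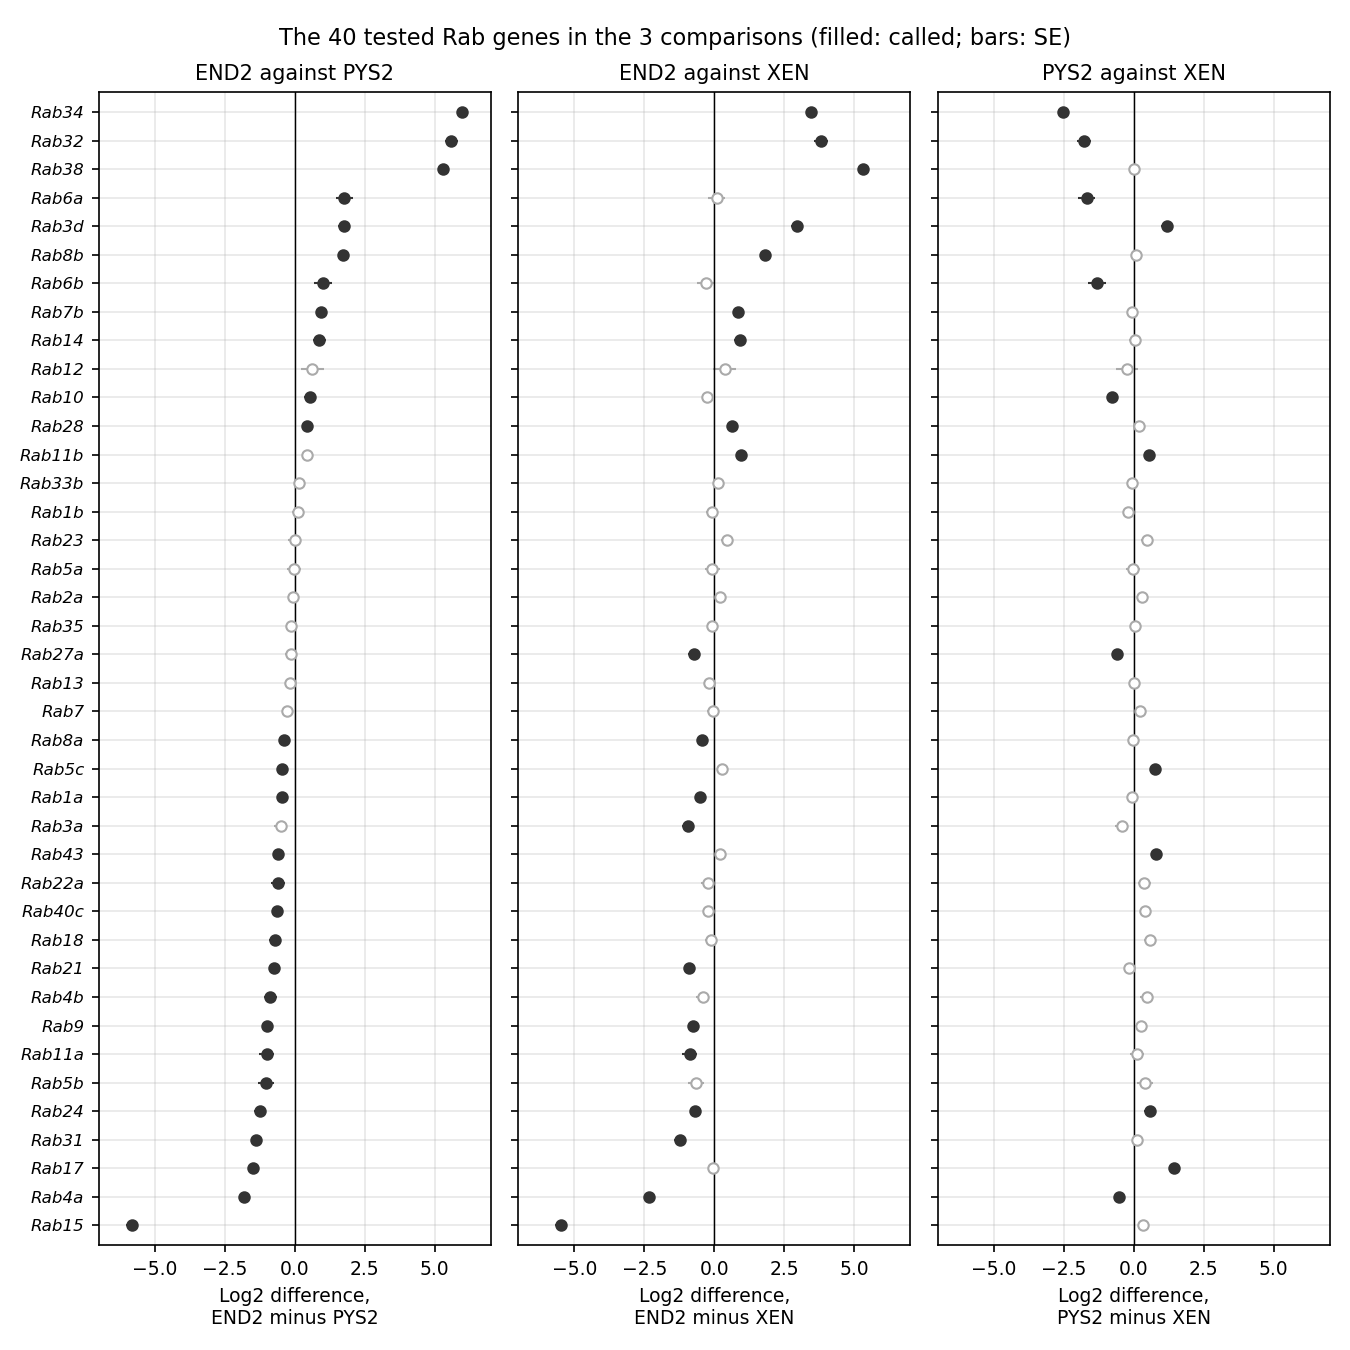
Log2 difference of the level of each of the 40 tested Rab genes in the 3 comparisons, with filled points for called genes, open points for the others and bars for the SE. Rab15 stands alone at the low end of both END2 comparisons (-5.82 and -5.48), and Rab34, Rab32 and Rab38 stand apart at the high end of END2 against PYS2 cells (5.98, 5.59 and 5.29).

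The Rab genes were also grouped by route, with earlier results of these data known. Each gene was given 1 route, although some, such as Rab17, Rab31 and Rab14, act on more than 1. In this grouping the Rabs of early endosomes were mostly lower in END2 than in PYS2 cells. Of 8 members 7 were tested, with 6 lower in END2 cells and none higher, with a median difference of -0.73. Among all genes 28.8% were lower in that comparison. Against XEN cells 2 of the 7 were lower, 5 were not called and the median was -0.24, beside 26.7% of all genes lower. The 6 were Rab17, Rab31, Rab5b, Rab21, Rab22a and Rab5c, and Rab5a was not called. Rab31, which acts between the trans-Golgi network and endosomes, stood at 10.13, 10.06 and 9.89 in END2 cells, at 11.35, 11.18 and 11.67 in PYS2 cells and at 11.53, 11.29 and 10.98 in XEN cells. All END2 arrays lay below all others, and Rab31 was 2.59-fold lower in END2 relative to PYS2 (log2 difference -1.37, SE 0.19, adjusted p = 9.53e-05) and 2.36-fold lower relative to XEN (-1.24, SE 0.19, adjusted p = 0.000222).

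Rab5 proteins drive the fusion of early endosomes, and the 3 Rab5 genes did not move together. Rab5b stood at 5.76, 5.50 and 4.70 in END2 cells and 6.63, 5.86 and 6.59 in PYS2 cells, without overlap, and was 2.06-fold lower in END2 cells (log2 difference -1.04, SE 0.29, adjusted p = 0.00979). It was detected on 2 of 3 END2 arrays. Its call was lost when probes present in no line were also tested, and without normalization between arrays. In XEN cells (5.71, 6.13 and 6.06) it overlapped END2 cells and was not called against either line. Rab5c, at 11.30, 11.52 and 11.48 in END2 cells and 11.17, 11.23 and 11.04 in XEN cells, was highest in PYS2 cells (11.93, 12.10 and 11.64), 1.67-fold above XEN cells (0.74, SE 0.17, adjusted p = 0.00478) and 1.37-fold above END2 cells (-0.46, SE 0.17, adjusted p = 0.0376). Rab5a had a difference of -0.04 between END2 and PYS2 cells, but 1 of its dimmer probes was called lower in END2 cells against PYS2 (-0.56, adjusted p = 0.0242) and the other against XEN cells (-0.61, adjusted p = 0.00822). Rab21, which carries integrins, was lower in END2 cells than in PYS2 (-0.73, SE 0.18, adjusted p = 0.00459) and XEN cells (-0.90, SE 0.18, adjusted p = 0.00124). The call of Rab22a (adjusted p = 0.0497) held under 3 of 21 alternatives, and that of Rab5c against END2 cells was ended by leaving out any of 5 arrays (END2 replicate 1 or 2, PYS2 replicate 1 or 2, or XEN replicate 1), with differences of -0.50 to -0.35 and adjusted p up to 0.134.

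Among the Rabs of recycling, 8 of 9 members were tested, with 1 higher and 4 lower in END2 relative to PYS2 cells and a median difference of -0.53. Among all genes 26.4% were higher and 28.8% lower in that comparison. Rab4a, which returns cargo rapidly from early endosomes to the surface, stood at 8.50, 8.51 and 8.20 in END2 cells, at 10.43, 10.18 and 10.02 in PYS2 cells and at 10.69, 10.67 and 10.83 in XEN cells. The 3 lines did not overlap. Rab4a was 3.49-fold lower in END2 relative to PYS2 (log2 difference -1.81, SE 0.17, adjusted p = 3.34e-06) and 5.01-fold lower relative to XEN (-2.33, SE 0.17, adjusted p = 4.08e-07). The smaller difference between PYS2 and XEN cells (-0.52, SE 0.17, adjusted p = 0.0316) lost its call when any of 5 arrays was left out (PYS2 replicate 2 or 3 or any XEN array), with differences of -0.55 to -0.43 and adjusted p from 0.0582 to 0.106. Its paralog Rab4b stood at 6.54, 6.59 and 7.22 in END2 cells and 7.80, 7.46 and 7.72 in PYS2 cells, 1.84-fold lower in END2 cells (-0.88, SE 0.23, adjusted p = 0.00738), and was not called against XEN cells (7.41, 6.81 and 7.39).

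Rab11a and Rab11b, both Rabs of the slower recycling endosome, were called on opposite sides in END2 against XEN cells. Rab11a stood at 6.60, 6.80 and 6.48 in END2 cells, below all arrays of PYS2 (7.94, 7.91 and 7.02) and XEN cells (7.63, 7.80 and 7.10), and was 2-fold lower relative to PYS2 (log2 difference -1.001, SE 0.27, adjusted p = 0.0077). Against XEN cells (-0.89, SE 0.27, adjusted p = 0.015) its call was ended by leaving out XEN replicate 1 or 2, with differences of -0.82 and -0.74 and adjusted p of 0.0516 to 0.064. Rab11b stood at 12.94, 13.14 and 12.71 in END2 cells, at 12.43, 12.39 and 12.68 in PYS2 cells and at 11.83, 12.11 and 11.97 in XEN cells. END2 cells were the highest and XEN cells the lowest, with a 1.95-fold difference between those 2 lines (0.96, SE 0.17, adjusted p = 0.000647) and no call between END2 and PYS2 cells. Rab14, which acts between the Golgi and endosomes, was the other recycling Rab that was higher in END2 cells, 1.83-fold above PYS2 (0.87, SE 0.22, adjusted p = 0.00611) and 1.89-fold above XEN cells (0.92, SE 0.22, adjusted p = 0.00444), while its dimmer probe was not called in either.

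Of 11 Golgi members only 4 were tested. In END2 against PYS2 cells 3 of them were higher in END2 cells (Rab34, Rab6a and Rab6b), beside 26.4% of all genes, with a median difference of 1.39. Against XEN cells 1 was higher, beside 27.5% of all genes, with a median of 0.10. Rab6 proteins return Golgi membrane to the endoplasmic reticulum and move vesicles from the Golgi to the surface. Rab6a stood at 8.99, 8.93 and 8.35 in END2 cells, at 7.06, 7.01 and 6.91 in PYS2 cells and at 7.998, 9.32 and 8.71 in XEN cells, so that PYS2 arrays lay below all others. It was 3.39-fold lower in PYS2 relative to END2 (log2 difference 1.76, SE 0.29, adjusted p = 0.000362) and 3.22-fold lower relative to XEN (-1.69, SE 0.29, adjusted p = 0.000921). Of its 2 dimmer probes, 1 gave the same calls (1.24 and -1.72) and the other had END2 cells below PYS2 (-0.89, adjusted p = 0.00563) and XEN cells (-1.13, adjusted p = 0.0013) and no call between PYS2 and XEN cells. The direction for Rab6a thus depends on the probe. Rab6b stood at 8.66, 9.08 and 7.57 in END2 cells, at 7.53, 7.52 and 7.23 in PYS2 cells and at 8.71, 8.96 and 8.55 in XEN cells. END2 replicate 3 lay close to the PYS2 arrays, which were the lowest. Rab6b was 2.48-fold lower in PYS2 relative to XEN (-1.31, SE 0.32, adjusted p = 0.00676) and 2.02-fold lower relative to END2 (1.01, SE 0.32, adjusted p = 0.0182), but without END2 replicate 1, END2 replicate 2 or PYS2 replicate 3 the latter call was lost (0.69 to 0.91, adjusted p up to 0.0727).

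Of the 6 Rabs between the endoplasmic reticulum and the Golgi 5 were tested. None was higher and 3 were lower in END2 relative to PYS2 cells, with a median of -0.47, beside 26.4% of all genes higher and 28.8% lower. The sizes of all differences in this group stayed under 1. The largest in END2 against PYS2 cells was that of Rab18 (-0.70, SE 0.21, adjusted p = 0.0153). Rab2a, at 12.67, 12.60 and 12.67 in END2 cells, 12.77, 12.71 and 12.71 in PYS2 cells and 12.24, 12.57 and 12.49 in XEN cells, was called in no comparison. Rab1a, which is needed for transport out of the endoplasmic reticulum, was lower in END2 cells than in PYS2 (-0.47, SE 0.15, adjusted p = 0.0178) and XEN cells (-0.52, SE 0.15, adjusted p = 0.0108), and the first of these calls was ended by leaving out PYS2 replicate 2 (-0.42, adjusted p = 0.0605). Rab43 stood at 6.57, 6.66 and 6.65 in END2 cells, at 7.65, 7.13 and 6.91 in PYS2 cells and at 6.50, 6.43 and 6.39 in XEN cells, the highest in PYS2 cells without overlap. It was 1.73-fold higher in PYS2 relative to XEN (0.79, SE 0.19, adjusted p = 0.00743) and 1.52-fold higher relative to END2 (-0.60, SE 0.19, adjusted p = 0.0205), the latter not called without END2 replicate 1 or PYS2 replicate 1 (-0.58 to -0.39, adjusted p up to 0.0787).

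In the late endosome and lysosome group, 5 of 6 members were tested, and in both END2 comparisons 1 was higher (Rab7b) and 2 were lower in END2 cells (Rab24 and Rab9). Of all genes 26.4% were higher and 28.8% lower than in PYS2 cells, and 27.5% and 26.7% than in XEN cells. Rab24, which has been tied to autophagy, stood at 9.55, 9.68 and 8.99 in END2 cells, at 10.57, 10.65 and 10.80 in PYS2 cells and at 10.18, 10.17 and 9.94 in XEN cells. The lines did not overlap, and Rab24 was 2.4-fold lower in END2 relative to PYS2 (log2 difference -1.26, SE 0.20, adjusted p = 0.000216), as on both of its other probes (-1.19 and -1.16), and 1.61-fold lower relative to XEN (-0.69, SE 0.20, adjusted p = 0.0119), where 1 of those probes was not called (-0.73, adjusted p = 0.112). Between PYS2 and XEN cells (0.58, adjusted p = 0.0388) the call was lost when any of the 6 arrays of those lines was left out (0.49 to 0.62, adjusted p up to 0.131), and neither other probe was called. Rab9, which returns mannose 6-phosphate receptors from late endosomes to the trans-Golgi network, was 1.98-fold lower in END2 relative to PYS2 (-0.99, SE 0.19, adjusted p = 0.000923) and 1.68-fold lower relative to XEN (-0.75, SE 0.19, adjusted p = 0.00569). Its dimmer probe was called in neither comparison (-0.60, adjusted p = 0.172, and -0.19, adjusted p = 0.683), and the call against XEN cells was lost with the mean of its probes. Rab7, the general Rab of late endosomes, was called in no comparison (11.13, 10.93 and 11.01 in END2 cells, 11.56, 11.46 and 10.87 in PYS2 cells and 11.20, 11.04 and 11.02 in XEN cells).

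Of the 10 members for regulated secretion and lysosome-related organelles 5 were tested. Of those, Rab32, Rab38 and Rab3d were higher in END2 cells in both comparisons, as described above, beside 26.4% (PYS2) and 27.5% (XEN) of all genes. The other 2 had the opposite sign. Rab3a, the Rab of synaptic vesicles, was 1.93-fold lower in END2 relative to XEN (log2 difference -0.95, SE 0.23, adjusted p = 0.00415), and Rab27a, which docks secretory granules and melanosomes, was 1.67-fold lower (-0.74, SE 0.20, adjusted p = 0.00844). Neither was called between END2 and PYS2 cells. Rab27a was also lower in PYS2 than in XEN cells (-0.60, adjusted p = 0.0352), a call that ended on leaving out any PYS2 array or XEN replicate 1 or 2 (-0.62 to -0.40, adjusted p up to 0.144). In these data the neuronal markers Snap25, Stmn2, Tubb3, Chga and Elavl3 were detected on no array and Syp on all PYS2 and XEN arrays and on no END2 array, and the part of this in the level of Rab3a was not tested.

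Rab8a and Rab8b carry vesicles from the Golgi to the surface and to the cilium, and they too were called on opposite sides. Rab8b stood at 11.16, 11.15 and 11.12 in END2 cells, at 9.35, 9.37 and 9.58 in PYS2 cells and at 9.38, 9.37 and 9.27 in XEN cells. All END2 arrays lay above all others, and Rab8b was 3.28-fold higher in END2 relative to PYS2 (log2 difference 1.71, SE 0.15, adjusted p = 1.51e-06) and 3.5-fold higher relative to XEN (1.81, SE 0.15, adjusted p = 1.07e-06), with the same calls on its other probe (1.78 and 1.83). Rab8a stood at 11.29, 11.51 and 11.40 in END2 cells, at 11.89, 11.61 and 11.91 in PYS2 cells and at 11.80, 11.78 and 11.90 in XEN cells. It was lower in END2 cells by a small amount, -0.41 against PYS2 (SE 0.16, adjusted p = 0.0461) and -0.43 against XEN cells (SE 0.16, adjusted p = 0.037), and its dimmer probe was not called against PYS2 (-0.37, adjusted p = 0.0689). Those calls were lost on leaving out any of 8 arrays, all but PYS2 replicate 2, in the first case (-0.46 to -0.35, adjusted p up to 0.146) and any of 4, END2 replicate 1 or a XEN array, in the second (-0.46 to -0.37, adjusted p up to 0.124). Of the other members of this group, Rab28 was higher in END2 than in XEN cells (0.64, SE 0.17, adjusted p = 0.00805), but its other probe was not called (0.18, adjusted p = 0.411) and the call was lost with the mean of its probes (0.41). Rab10, which brings glucose transporter vesicles to the surface, was lower in PYS2 than in XEN cells (-0.78, SE 0.19, adjusted p = 0.00686).

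**Figure D3:**
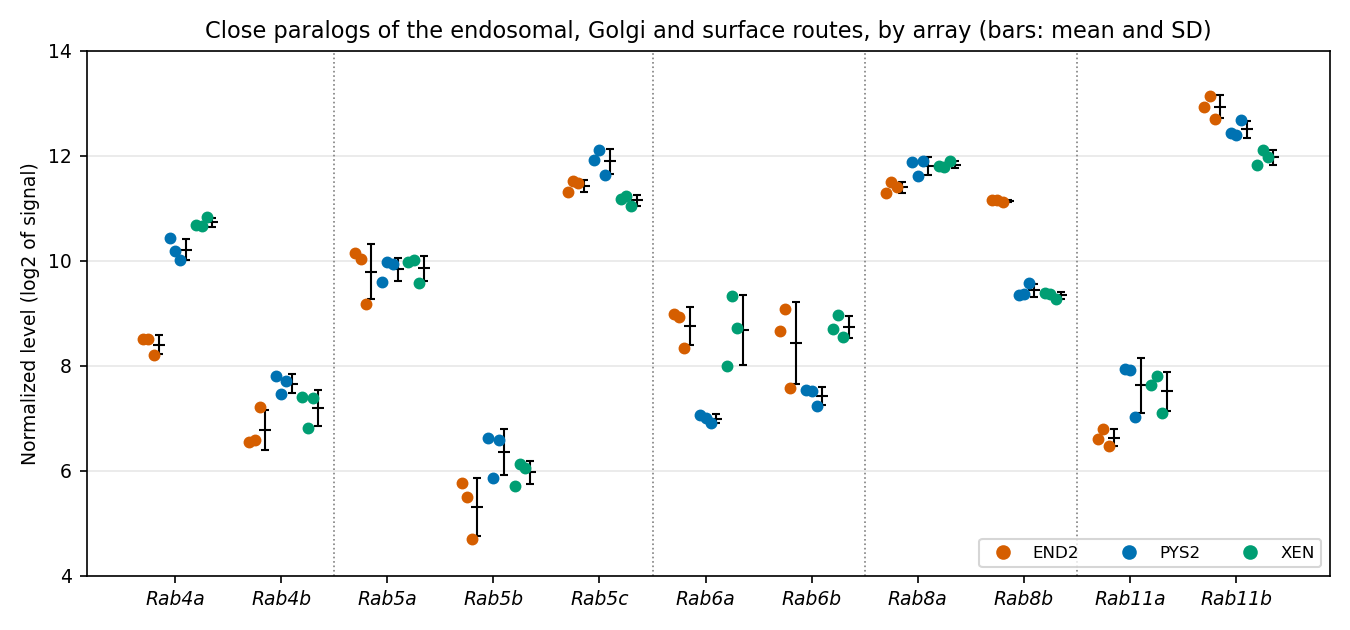
Normalized level (log2 of signal) of 5 sets of Rab paralogs on each array, with END2 in orange, PYS2 in blue and XEN in green and bars for the mean and SD of 3 arrays, and dotted lines between the sets. Rab8b was high in END2 cells (11.12 to 11.16) while Rab8a was not, Rab4a was low in END2 cells, and Rab6a and Rab6b were low in PYS2 cells. Levels of different probes cannot be compared with each other.

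**Figure D4:**
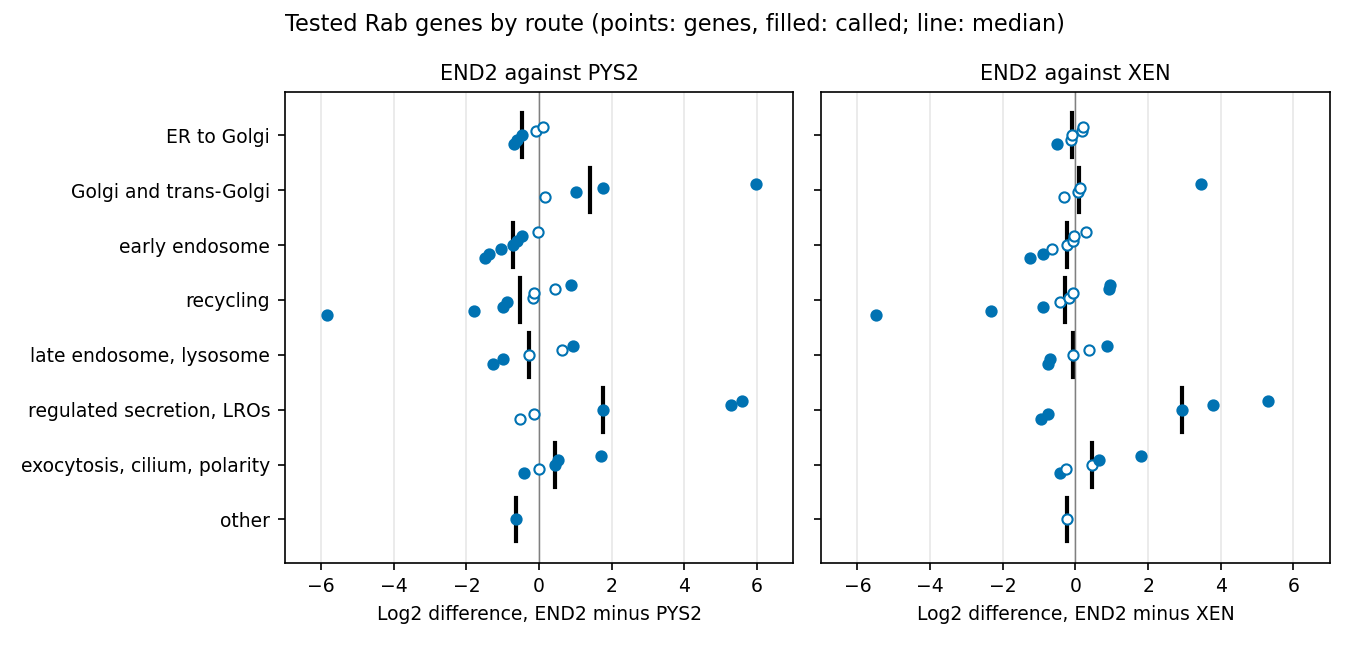
Log2 difference of each tested Rab gene in END2 against PYS2 cells (left) and END2 against XEN cells (right), grouped by the route it serves, with filled points for called genes, open points for the others and a line for the median of the group. LROs are lysosome-related organelles. Each gene was given 1 route, with earlier results of these data known. The median was -0.73 for early endosomes and 1.76 for regulated secretion in END2 against PYS2 cells, and -0.24 and 2.94 in END2 against XEN cells.

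For 18 of the 40 tested genes more than 1 probe was tested, which gave 69 further comparisons. In 52 of these the further probe had the same call as the brightest, in 16 only 1 of the 2 was called, and in 1, Rab6a in END2 against PYS2 cells, the calls were opposite. Over all 3 comparisons 61 calls were made, of which 23 held under each of 21 alternatives, 36 were lost under 1 or more and the 2 calls of Rab7b could not be tested under 3. None took the other sign under any alternative. Leaving out a single array ended 14 of the 61 calls, all for differences under 1 in size except that of Rab6b. Those not yet given were Rab10 in END2 against PYS2 cells (any PYS2 array or END2 replicate 2 or 3, 0.36 to 0.55, adjusted p up to 0.102), Rab28 in the same comparison (END2 replicate 1 or 2, PYS2 replicate 2 or 3 or XEN replicate 1, 0.37 to 0.46, adjusted p up to 0.139) and Rab11b in PYS2 against XEN cells (PYS2 replicate 3 or XEN replicate 1 or 3, 0.44 to 0.53, adjusted p up to 0.108).

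The proteins that act on Rabs were described from lists of 6 kinds, of which 120 genes were tested. In END2 against PYS2 cells 25 of these were called higher and 40 lower in END2 cells, beside 26.4% and 28.8% of all genes. In END2 against XEN cells 33 and 28 were (27.5% and 26.7% of all genes), and in PYS2 against XEN cells 29 were higher and 24 lower in PYS2 cells (21.2% and 18.4%). These shares were not tested against each other. Exchange factors load a Rab with GTP, and of 35 tested 5 were higher and 14 lower in END2 than in PYS2 cells (median -0.29). Rin1, an exchange factor of Rab5, stood at 9.80 in END2 and 5.37 in PYS2 cells, where 1 array detected it (at least 18.5-fold higher in END2, adjusted p = 1.39e-07). Against XEN cells Rin1 was 5.29-fold higher (7.40, adjusted p = 3.13e-05). Dennd2c was 14-fold lower in END2 relative to PYS2 (5.32 against 9.13, adjusted p = 2.14e-08) and 24.6-fold lower relative to XEN (9.94, adjusted p = 5.34e-09). Rab3il1, an exchange factor of Rab8, was detected on no END2 array while PYS2 stood at least 8.03-fold and XEN at least 12.4-fold above it (adjusted p = 4.4e-09 and 1.65e-09). Rin2 was lowest in XEN cells, 5.72-fold below END2 and 5.34-fold below PYS2 cells (adjusted p = 0.00012 and 0.000308). GTPase-activating proteins switch Rabs off, and of 28 tested 4 were higher and 10 lower in END2 than in PYS2 cells (median -0.15), with Sgsm1 at least 2.11-fold higher in PYS2 relative to XEN (adjusted p = 1.19e-06) and Tbc1d24 3.04-fold lower in END2 relative to XEN (adjusted p = 5.13e-05). Of 12 tested genes of Rab prenylation, escort and extraction 2 were higher and 3 lower, among them Rabggta, a subunit of the enzyme that adds the lipid anchor, 3.42-fold lower in END2 relative to PYS2 (adjusted p = 6.93e-06).

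Effectors of secretion and granules were mostly undetected, with 5 of 19 tested, and all 5 were called in END2 against PYS2 cells, 2 higher and 3 lower in END2 cells. Of all genes 55.3% were called in that comparison, 26.4% higher and 28.8% lower. The 2 class V myosins of the list, which are motors for Rab-bearing vesicles, were opposite. Myo5b, the motor of the Rab11 recycling endosome, was detected on no END2 array while PYS2 stood at least 11.5-fold and XEN at least 14.8-fold above it (adjusted p = 1.22e-09 and 8.12e-10). Myo5a, the motor of melanosomes, was instead 3.11-fold and 3.12-fold higher in END2 cells (adjusted p = 0.000101 and 0.000104). The exocyst subunits Exoc6 and Exoc6b were opposite too in END2 against PYS2 cells, with Exoc6 3.6-fold lower (adjusted p = 2.86e-05) and Exoc6b 4.08-fold higher in END2 cells (adjusted p = 1.38e-05). Of 25 tested effectors of endosomes and lysosomes 6 were higher and 7 lower in END2 than in PYS2 cells (median -0.04). Within the family that binds Rab11, Rab11fip4 was at least 6.04-fold higher in PYS2 relative to END2 (adjusted p = 1.11e-07) and Rab11fip5 3.98-fold higher (adjusted p = 4.44e-05), while Rab11fip2 was at least 1.98-fold higher in END2 cells (adjusted p = 0.00126). Of 15 tested effectors of the Golgi 6 were higher and 3 lower in END2 than in PYS2 cells (median 0.35). Against XEN cells 7 were higher and 2 lower (median 0.41), beside 27.5% and 26.7% of all genes. Mical1, an enzyme that oxidizes actin and binds several Rabs, was detected on no PYS2 or XEN array and was at least 6.54-fold and at least 6.76-fold higher in END2 cells (adjusted p = 8.86e-09 and 4.83e-08), and Mical3 was 5.51-fold higher in END2 relative to PYS2 (adjusted p = 5.21e-06). Of 5 tested Rab-like genes outside the naming rule, such as Rabl3 and Ift27, END2 cells had 2 higher than PYS2 cells and none lower.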

How the data were processed

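The authors' scanner table, read with Illumina BeadStudio, holds deposited signals as intensity on a linear scale without normalization between arrays, the number of beads, and a detection score, a deposited fraction between 0 and 1. The score rose with the signal, and 1 minus the score served as detection p-value. The authors' own normalized table, made with lumi, is deposited on a log2 scale and was used as an alternative. The sources used here do not say whether the scanner software subtracted a background. A further 24 columns belong to no sample of this series and were not used. Background correction and quantile normalization used the neqc function (offset 16) of limma version 3.58.1 under R version 4.3.3. The fit was checked on simulated data in which, unlike here, most probes had no change. In END2 against PYS2 cells it called 2 of 50 log2 changes of 0.5 and 16 of 50 changes of 1. It called 30 of 50 changes of -1, 47 of 50 changes of 2 and 6 of 16099 unchanged probes. Small differences can thus be missed. Of 45281 probes, 34885 had 1 gene symbol in the platform annotation, 18 had several and 10378 none. The 16299 probes present in at least 1 line entered a single limma model over 9 arrays with no replicate term, adjusted after Benjamini and Hochberg at 0.05, and the brightest tested probe stood for its gene. Arrays have no depth, so their number limits precision. Named in full were Rab15, genes called with a log2 difference of at least 1, genes undetected in a line and present in another, and the 3 largest on each side, with paralogs by their values. The Rab genes, their roles, the other lists and the tests were chosen with earlier results of these data known. Alternatives covered normalization, background, filters, presence rules, the spread model, probe choice and each array left out.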

Additional observations from a re-analysis of the deposited data

How the results depend on the processing

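Without normalization between arrays, the Rab genes called fell to 13 (8 higher and 5 lower in END2 cells) in END2 against PYS2, 9 (6 and 3) in END2 against XEN and 4 (1 and 3) in PYS2 against XEN cells, while the share of all tested probes called fell from 53% to 31%, from 51.8% to 30.1% and from 36.9% to 14.6%, and the median difference of all probes moved to 0.18 and 0.14 in the END2 comparisons. Of the 36 calls lost under 1 or more alternatives 35 were lost there, all but that of Rab6b in END2 against PYS2 cells. Counting every tested Rab probe gave 20 calls in PYS2 against XEN cells, and the authors' normalized values 16 (9 higher and 7 lower in PYS2 cells). Without END2 replicate 2, 7 genes in place of 11 were higher in END2 than in PYS2 cells. The other counts of calls run here, in total and in each direction, stayed within 1.5 times. Leaving out each array in turn gave 21 to 27, 18 to 22 and 9 to 16 calls, and 36 to 38, 35 and 35 to 36 Rab genes present in END2, PYS2 and XEN cells. Without END2 replicate 3, 27, 22 and 16 were called. With the replicate block, 26, 20 and 14 were called. Deviations of same-numbered arrays correlated at -0.28 to 0.31, so the numbers were not taken to pair samples. The 19 Rab genes present in no line, whose signal rarely rose above background, allow no statement on a difference.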
